A study of Mus musculus with 35 samples.

Results

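Snhg1, Snhg3, Snhg5, Snhg6, Snhg8, Snhg12 and Gas5 are noncoding genes whose introns carry small nucleolar RNAs (snoRNAs). The 7 genes were chosen by name, and 5 of them are among the 37310 genes of the GENCODE vM1 annotation of mouse build mm9. Their bodies lie at chr19:8797986-8800932 (Snhg1, plus strand), chr4:131903929-131909601 (Snhg3, minus), chr9:88415894-88417721 (Snhg5, minus), chr4:131864593-131866939 (Snhg12, plus) and chr1:162964553-162968670 (Gas5, plus). Snhg6 and Snhg8 were without a model of that name and were measured as windows on the minus strand, chr1:9930450-9934724 for Snhg6 and chr3:123210470-123211254 for Snhg8, in which exons and introns could not be told apart. The Snhg8 window was set by an exact match of its RefSeq promoter sequence and the RefSeq gene length of 785 nt, and the Snhg6 window reached its RefSeq length of 2094 nt to either side of its snoRNA. The 7 genes carry 27 annotated snoRNA genes: 8 in Snhg1, 2 in Snhg3, 2 in Snhg5, 1 in Snhg6, 1 in Snhg8, 4 in Snhg12 and 9 in Gas5. Part of Snhg3 overlaps Rcc1 on the same strand, so tags there are uncertain.

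The study asked how SR proteins take part in mRNA export and mapped protein contacts by individual-nucleotide cross-linking and immunoprecipitation (iCLIP), in which ultraviolet light of 254 nm joins protein to RNA and reverse transcription stops beside the joined base. The cells were P19, a mouse embryonal carcinoma line with features of pluripotent embryo cells, carrying a GFP fusion of 1 protein on a bacterial artificial chromosome (BAC) as stable clonal lines selected with Geneticin and by sorting. The groups were NXF1 (3 libraries), SRSF1 (4), SRSF2 (5), SRSF3 (3), SRSF4 (3), SRSF5 (4), SRSF6 (3), SRSF7 (6) and, as the control, GFP with a nuclear localization signal (GFP-NLS, 4 samples with 1 pooled file). Every line also kept its endogenous proteins, and all fusions were precipitated with the same anti-GFP antibody.

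A snoRNA is freed from its host's intron after splicing and is trimmed at both ends, while the proteins of its particle protect what remains. Box C/D snoRNAs guide methylation and box H/ACA snoRNAs guide pseudouridylation, mostly of ribosomal RNA. The spliced host RNAs are short, encode no known conserved protein, and several are known to be cleared by nonsense-mediated decay when they are translated. NXF1 is the main export receptor of mRNA, and SR proteins are splicing factors that bind exons.

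The snoRNAs whose levels differed most clearly between proteins are shown as the RNA strand in DNA letters, 5′ to 3′, from mm9. SNORD74 (chr1:162965525-162965604, plus strand) and SNORD75 (chr1:162965981-162966042, plus strand) lie in Gas5, SNORD28 (chr19:8799358-8799433, plus strand), SNORD30 (chr19:8799831-8799899, plus strand) and Snord22 (chr19:8800356-8800481, plus strand) lie in Snhg1, and AC124005.1 (chr3:123210855-123210984, minus strand) lies in Snhg8. These 6 were higher with NXF1. Snora73a (chr4:131908690-131908894, minus strand) of Snhg3 had the highest level of all hosted snoRNAs, and Snora16a (chr4:131865380-131865515, plus strand) of Snhg12 and SNORD44 (chr1:162966813-162966872, plus strand) of Gas5 differed among SR proteins. Capitals mark a C box (NTGATGA within the first 30 nt) and a D box (CTGA within the last 25 nt) where both were found, or an ACA within the last 6 nt of the others.
SNORD74: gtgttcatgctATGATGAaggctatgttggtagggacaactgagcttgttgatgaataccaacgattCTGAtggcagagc
SNORD75: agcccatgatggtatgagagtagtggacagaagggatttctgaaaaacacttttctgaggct
SNORD28: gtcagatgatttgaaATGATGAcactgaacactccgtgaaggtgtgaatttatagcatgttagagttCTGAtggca
SNORD30: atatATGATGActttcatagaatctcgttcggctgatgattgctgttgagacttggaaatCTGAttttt
Snord22: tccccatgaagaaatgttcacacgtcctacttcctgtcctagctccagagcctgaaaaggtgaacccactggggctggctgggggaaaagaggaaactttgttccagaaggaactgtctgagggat
AC124005.1: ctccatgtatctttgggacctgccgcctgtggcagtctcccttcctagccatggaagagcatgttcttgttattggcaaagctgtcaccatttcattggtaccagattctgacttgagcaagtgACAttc
Snora73a: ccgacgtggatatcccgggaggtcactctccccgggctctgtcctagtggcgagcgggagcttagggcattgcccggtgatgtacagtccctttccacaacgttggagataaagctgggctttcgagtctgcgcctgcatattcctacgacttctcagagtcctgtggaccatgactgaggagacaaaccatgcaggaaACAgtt
Snora16a: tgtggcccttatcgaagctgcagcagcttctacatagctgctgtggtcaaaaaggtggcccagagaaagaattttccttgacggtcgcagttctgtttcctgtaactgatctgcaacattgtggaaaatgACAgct
SNORD44: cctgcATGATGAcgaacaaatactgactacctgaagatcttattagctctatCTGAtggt
Both boxes were found in 17 of the 27 hosted snoRNAs (63.0%), against 18.2% of all 1552 annotated snoRNA genes, searched on the RNA strand with these letters only. The ACA was found at the end of 6 hosted snoRNAs (22.2%), against 46.6% of all snoRNA genes. SNORD75 and Snord22 hold a D box without a C box in these letters and are printed without capitals. Each hosted snoRNA sequence matches the genome once, except those of the pair named SNORD50 in Snhg5, which match 2 places each.

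Each deposited file lists positions whose cDNA count passed a false discovery rate of 0.05, and a listed cDNA is called a tag here. Levels are tags per 1000000 listed tags of a library (CPM), so a 0 says only that no position was listed. Libraries held from 13038 to 4459523 listed tags, with a median of 237488, and the NXF1 libraries held 237488, 140361 and 108708. All 10 markers of P19 cells had tags (322 to 729 CPM summed in NXF1 libraries, 0 to 2494 CPM in SR libraries), as did 3 of 3 annotated neuron markers (14.3 to 46.3 and 0 to 384 CPM), 4 of 4 fibroblast and mesoderm markers (0 to 8.42 and 0 to 62.2 CPM) and 2 of 4 endoderm markers (0 and 0 to 2.84 CPM), with Afp and Sox17 at 0. The libraries labelled SRSF2 replicates 2 and 5 carry file headers that name SRSF1. Tags on Nxf1 itself, the tagged gene, reached 1472 to 2985 CPM with NXF1, against 161.8 CPM or less in every SR library, while the levels of Srsf1, Srsf2 and Srsf5 overlapped between their own and other lines. Pairs of libraries shared at most 24.2% of their positions.

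Mean tag levels were higher with NXF1 than with SR proteins on 6 of the 7 host genes and lower on Snhg5, and Snhg8 alone passed the test. The 7 genes together took 1.99 ± 0.22% of the listed tags with NXF1 (SD, n = 3), against 0.532 ± 0.342% with SR proteins (n = 28) and 0.224% in the GFP-NLS file (49 of 21880 tags). Among SR proteins the mean share was highest for SRSF1 (0.902 ± 0.58%, n = 4) and lowest for SRSF7 (0.288 ± 0.116%, n = 6). The control file had 12 tags on Snhg1 (548 CPM), 16 on Snhg3 (731 CPM), 20 on Snhg12 (914 CPM) and 1 on Gas5 (45.7 CPM), levels below every NXF1 library but within the range of SR libraries. It had none on Snhg5, Snhg6 and Snhg8, where a count of 0 allows up to 137 CPM.

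Snhg8 was the only host whose level passed the test. It had 741, 997 and 920 CPM with NXF1, against 0, 136 and 513 CPM as the lowest, median and highest of the 28 SR libraries. Every NXF1 library lay above every SR library. The log2 change, NXF1 minus the mean of the 7 SR proteins, was 3.23 ± 0.91 (SE; limma adjusted p = 0.0298), where 6.22% of 6236 genes passed the test, 3.61% higher and 2.61% lower. At an unadjusted limma p under 0.05 there were 5 hosts, all but Snhg5 and Gas5. The share of all genes or parts at that threshold was not at hand. The unadjusted counts here and below therefore could not be set against it. The median log2 change of all genes tested was -1.83. Scaling by a trimmed mean moved that median up by 0.933 and scaling by coding-gene tags by 0.81, and the sign of all 7 host genes was the same under both.

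Snhg1, which carries 8 box C/D snoRNAs, had 8283, 8008 and 6375 CPM with NXF1, against 0, 1357 and 5358 CPM as the lowest, median and highest with SR proteins. The groups did not overlap, with a log2 change of 2.73 ± 0.95 (limma adjusted p = 0.0665). Snhg3, host of Snora73a and Snora73b, had 2846, 4453 and 4232 CPM with NXF1, against 0, 828 and 2867 CPM with SR proteins. Only SRSF1 replicate 2 exceeded the lowest NXF1 library, and the log2 change was 2.40 ± 0.93 (limma adjusted p = 0.0825). Snhg12 had 3204, 3769 and 3312 CPM with NXF1, against 0, 721 and 3301 CPM with SR proteins (2.40 ± 0.88, limma adjusted p = 0.0765). Its groups overlapped by a single SR library, again SRSF1 replicate 2.

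Gas5, known for its rise in growth-arrested cells, had 5251, 3776 and 2189 CPM with NXF1, against 0, 1107 and 3040 CPM with SR proteins. Those ranges overlapped, with 22 of 28 SR libraries below all NXF1 libraries, and the log2 change was 1.98 ± 1.06 (limma adjusted p = 0.149). Snhg6 had 514, 356 and 304 CPM with NXF1, against 0, 85.7 and 473 CPM with SR proteins (2.42 ± 0.87, limma adjusted p = 0.0729), and 26 of 28 SR libraries lay below all of them. Snhg5 went the other way, with 50.5, 42.8 and 27.6 CPM with NXF1 against 0, 134 and 734 CPM with SR proteins (-1.5 ± 0.79, limma adjusted p = 0.145). Its NXF1 values sat inside the SR range, and its log2 change lay near the median of all genes tested (-1.83).

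The number of hosts called depended on the libraries and on the filter and test. With all libraries in, the Snhg8 call was lost with no filter (3.28, adjusted p = 0.0820), in limma-trend with 1 or 10 CPM added (3.84, 0.132 and 3.19, 0.0757) and with small RNA positions left out (1.85, 0.0975), which left 0 calls in each. The Snhg8 call was lost without any NXF1 replicate (highest adjusted p = 0.190, without replicate 2), while Snhg1 passed without SRSF1 replicate 4 (0.0238) or SRSF2 replicate 3, and Snhg12 without SRSF2 replicate 3 (0.0399). In libraries of 50000 to 250000 listed tags (8 libraries of 5 SR proteins), 6 hosts were called higher, all but Snhg5, with log2 changes of 1.97 for Snhg1, 2.14 for Snhg3, 3.01 for Snhg6, 3.40 for Snhg8, 2.01 for Snhg12 and 1.5 for Gas5. File headers date all NXF1 libraries and 13 libraries of 4 SR proteins to 2014, and within that run year 5 hosts were called. The share of all genes called in either subset was not at hand, so neither count could be set against it.

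**Figure D1:**
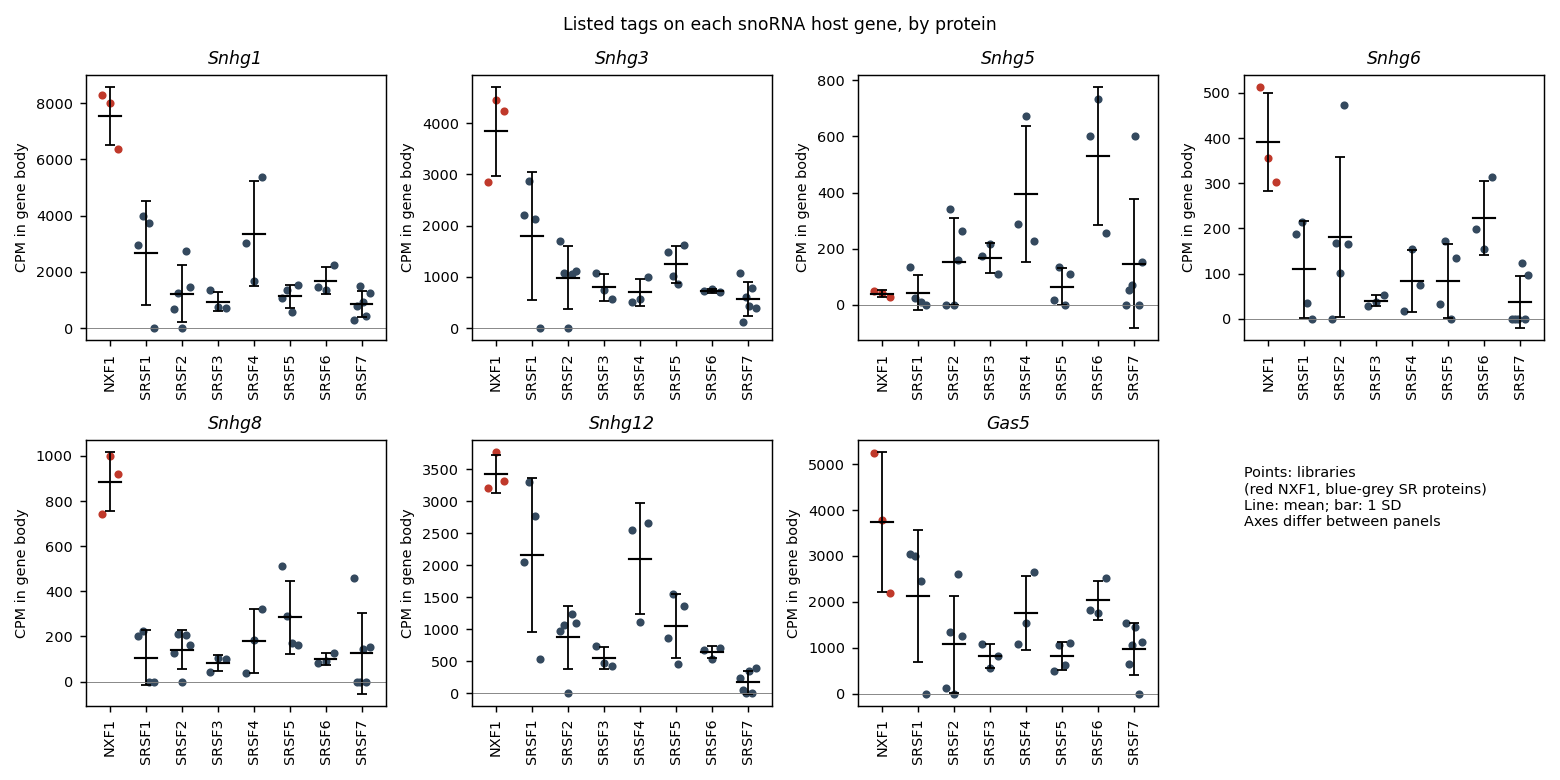
Listed tags on each host gene in every library (CPM, y axis, with a scale of its own in each panel), with NXF1 at the left and the 7 SR proteins after it; lines are means and bars 1 SD. The 3 NXF1 libraries of Snhg1 and Snhg8 lie above all 28 SR libraries, and those of Snhg5 (27.6 to 50.5 CPM) lie low in the SR range.

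Ordered by mean level, NXF1 came first for 6 hosts and last for Snhg5. Most neighbours in that order overlapped in their ranges. NXF1 was apart from the next protein for Snhg1 (SRSF4, 3353 ± 1866 CPM, n = 3) and for Snhg8 (SRSF5, 284 ± 163 CPM, n = 4). SRSF7 was apart from the next protein above it for Snhg12, and SRSF4 was apart from the next protein below it, SRSF3, for Snhg5.

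The mean share of host tags on the snoRNAs was higher with NXF1 than with each SR protein, of which SRSF1 came next (81.0 ± 13.2%, n = 4). By host the order could turn: in Snhg12 NXF1 had 81.1 ± 5.5% (n = 3) and SRSF1 82.5 ± 12.3% (n = 4), in Snhg8 NXF1 76.9 ± 9.67% (n = 3) and SRSF1 79.6 ± 16.0% (n = 2 with tags), and in Snhg1 NXF1 84.8 ± 2.36% (n = 3) and SRSF5 87.0 ± 10.9% (n = 4). The snoRNA share of host tags was 86.5 ± 3.3% with NXF1 (83.9 to 90.2%, n = 3), against 66.2 ± 18.1% with SR proteins (median 67.8%, n = 28) and 81.6% in the GFP-NLS file (40 of 49 tags, 95% Wilson interval 68.6 to 90.0%, counting error only). Of the remaining 1248 NXF1 tags, 93.5% fell within 5 nt before the 5′ end of a snoRNA, against 22.4% of 45730 SR tags. With those bases counted to the snoRNAs, the share was 99.2 ± 0.398% with NXF1 and 77.4 ± 19.4% with SR proteins. In summed tags, 81 of 9852 NXF1 tags (0.822%) and 35497 of 122629 SR tags (28.9%) lay elsewhere in the host genes. The 3 NXF1 libraries (98.9 to 99.7%) sat inside the SR range of 0 to 100%, where libraries with few tags reached both ends. These shares are descriptions without a test.

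**Figure D2:**
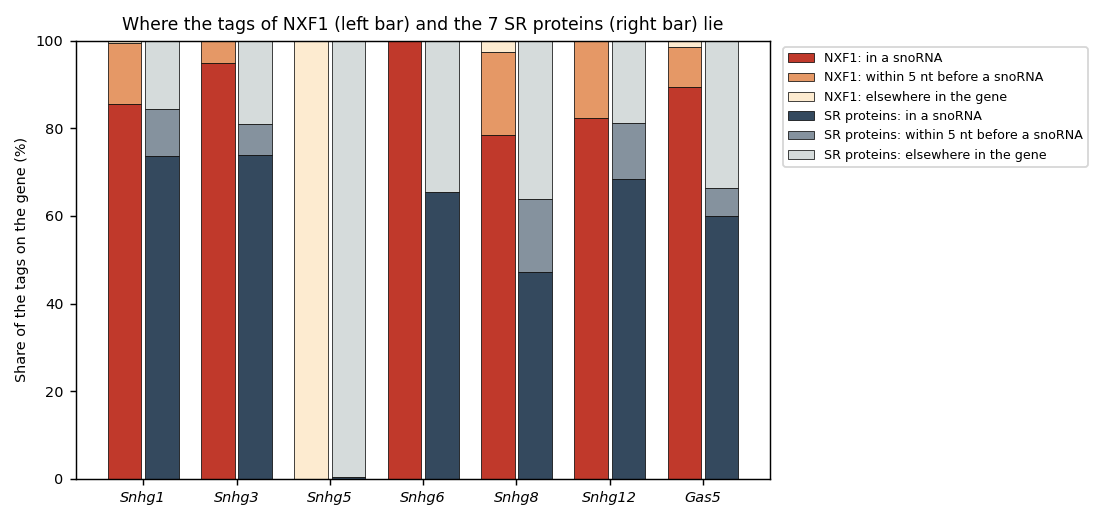
Share of the summed tags on each host gene (%, y axis) that lay in a snoRNA, within 5 nt before a snoRNA or elsewhere, for NXF1 (left bar) and the 7 SR proteins (right bar). Outside Snhg5, nearly all NXF1 tags lie in the first 2 classes, and Snhg5 has none there with NXF1.

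The 5-nt margin was taken up by the first bases next to the mature end. In Snhg12, 201 of 289 NXF1 tags within it lay 1 nt before a snoRNA (69.6%), against 1513 of 2438 SR tags (62.1%). In Snhg3 the most used base was 2 nt before, with 63 of 90 NXF1 tags (70.0%) and 983 of 1355 SR tags (72.5%). In Snhg1 the leading base was 2 nt before for both, with 210 of 528 NXF1 tags (39.8%) and 1328 of 3613 SR tags (36.8%), and in Snhg8 it was 1 nt before for both (58.2% of NXF1 and 45.6% of SR tags). Gas5 differed, with 94 of 181 NXF1 tags 1 nt before (51.9%) and 947 of 2259 SR tags 2 nt before (41.9%). A reverse transcriptase stop at an RNA's own 5′ end and a cross-link there cannot be told apart in tag files.

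These end positions were among the most tagged bases of the hosts and are shown with 14 nt to either side, the tagged base in capitals. The windows are chr4:131866140-131866168 for Snora61 of Snhg12 (plus strand, 1 nt before its 5′ end), chr19:8798725-8798753 for SNORD26 of Snhg1 (plus, 2 nt before) and chr4:131908882-131908910 for Snora73a of Snhg3 (minus, 2 nt before).
Snora61 end: ggctaagacagcctGaccctccggtttcc
SNORD26 end: ataagttgtgtgtgTgctacggggatgat
Snora73a end: acattaccatgactAtccgacgtggatat
The base before Snora61 had 288 ± 126 CPM with NXF1 and 88.3 ± 126 CPM with SR proteins, and 5 tags in the control file. The base before SNORD26 had 118 ± 52.1 CPM with NXF1 and 36.4 ± 46.1 CPM with SR proteins. The base before Snora73a had 103 ± 147 CPM with NXF1, where 1 library had no tag, and 55.2 ± 132 CPM with SR proteins. The spread between libraries at single bases was as large as these means, apart from NXF1 at the first pair.

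Among the 27 hosted snoRNAs, 24 had a higher mean with NXF1, and 9 had every NXF1 library above every SR library. Neither count was made for other snoRNA genes or gene parts, so both describe the hosted snoRNAs only. In the test over all gene parts (gene exons, introns and small RNA genes apart, 7039 tested), 3.04% passed, 2.49% higher and 0.554% lower. Of 24 hosted snoRNAs tested, 6 were called higher and 0 lower, with a median log2 change of 2.83. Of 193 other snoRNA genes, 81 were called higher (42%), with a median of 2.81. The median of all parts was -1.77.

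SNORD74 of Gas5 changed with the smallest adjusted p. It had 371, 406 and 129 CPM with NXF1, against 0, 8.77 and 115 CPM as the lowest, median and highest with SR proteins, a log2 change of 4.04 ± 0.83 (limma adjusted p = 0.00364). SNORD75, its neighbour in the same host, had 1137, 1518 and 1288 CPM with NXF1, against 0, 115 and 707 CPM (3.49 ± 0.85, 0.0157). Neither overlapped between the groups.

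In Snhg1, SNORD30 had 947, 912 and 984 CPM with NXF1, against 0, 93.4 and 490 CPM with SR proteins (3.45 ± 0.92, limma adjusted p = 0.0298). Snord22 had 1217, 1204 and 828 CPM, against 0, 122 and 596 CPM (3.799 ± 1.10, 0.0494). SNORD28 had 1790, 1475 and 1131 CPM, against 0, 229 and 1725 CPM (2.83 ± 0.82, 0.0473). SNORD30 and Snord22 did not overlap between groups, while 2 SRSF4 libraries reached the NXF1 range of SNORD28. AC124005.1, the snoRNA of Snhg8, had 653, 705 and 662 CPM with NXF1, against 0, 45.5 and 460 CPM with SR proteins (4.603 ± 1.32, 0.0473), with no overlap.

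The other hosted snoRNAs did not pass. Snora73a had 2463 ± 623 CPM with NXF1, against 474 ± 403 CPM for SR libraries (2.95 ± 0.98, limma adjusted p = 0.0858), and its partner Snora73b 1163 ± 281 and 290 ± 232 CPM (2.41 ± 0.84, 0.102). The groups did not overlap for either. AC102570.1 of Snhg6 had 391 ± 109 and 74.2 ± 105 CPM (2.90 ± 0.85, 0.0509). In Snhg12, Snora61 (1199 ± 363 and 220 ± 280 CPM), Snora44 (530 ± 294 and 86.9 ± 113 CPM) and Snord99 (694 ± 113 and 151 ± 182 CPM) had adjusted p between 0.0557 and 0.0583. In the control file Snora73a had 16 tags (731 CPM), Snord99 11 (503 CPM), SNORD26 8 (366 CPM), SNORD25 and SNORD28 2 each and SNORD75 1, with none on any other hosted snoRNA. SNORD44 of Gas5 had no tag in the 3 NXF1 libraries (17 tags, 29.8 CPM, in the authors' pooled NXF1 file, which was filtered on its own) and 25.4 ± 45.3 CPM with SR proteins. SNORD78 had tags in a single NXF1 library and none with SR proteins, and like both SNORD50 copies it was below the filter of 42.1 CPM in 3 libraries.

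Leaving out single libraries ended several of these calls. SNORD74 was lost without NXF1 replicate 1 or 2 (highest adjusted p = 0.0897), and SNORD75 and SNORD30 without any NXF1 replicate (0.160 and 0.199). SNORD28, Snord22 and AC124005.1 were lost without any of 11, 14 and 13 of the 31 libraries, each NXF1 replicate among them, with adjusted p of at most 0.301, 0.295 and 0.272. In libraries of 50000 to 250000 listed tags all 6 passed (adjusted p of at most 0.000763), as did 19 tested parts of the hosts in the higher direction. The share of all parts called in those libraries was not at hand.

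**Figure D3:**
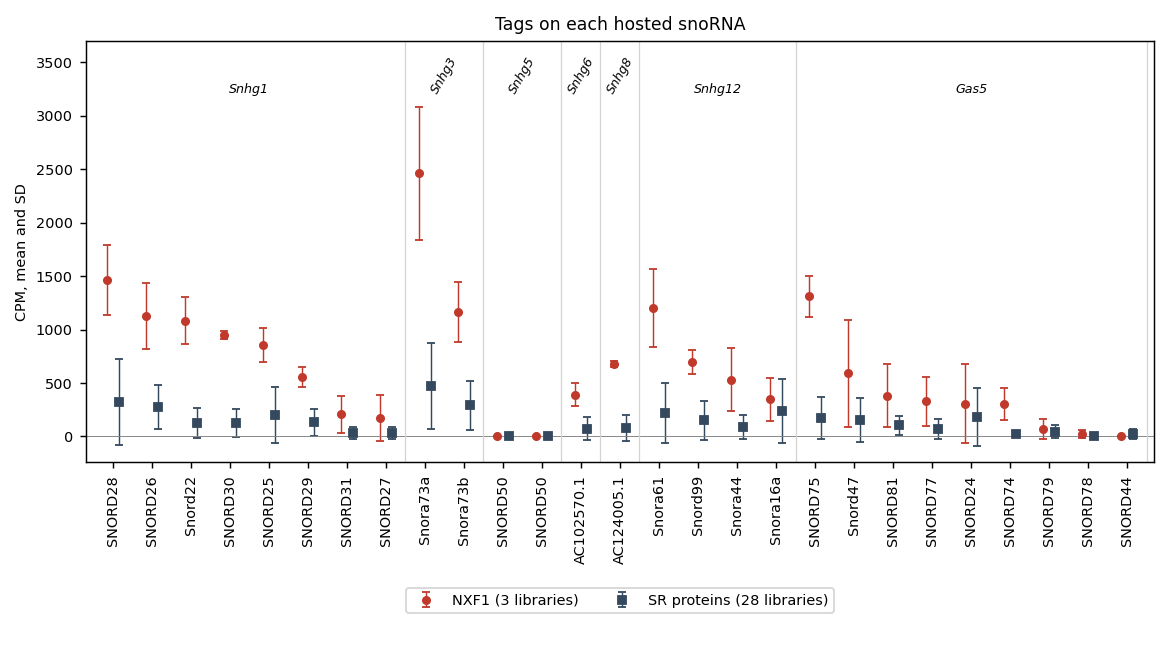
Level of each hosted snoRNA (CPM, y axis; mean and 1 SD) in 3 NXF1 libraries (red) and 28 SR libraries (blue-grey), grouped by host. NXF1 lies higher for 24 of 27, with Snora73a at 2463 CPM the highest, and both SNORD50 copies of Snhg5 lie near 0.

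Outside the snoRNAs and the 5 nt before them, NXF1 left few tags on the spliced host RNAs. With those bases moved to the small RNAs, 3.36% of 7029 gene parts passed the NXF1 test, 2.77% higher and 0.583% lower. The exons of Snhg3 had 0 tags in each NXF1 library, against 0, 105 and 259 CPM as the lowest, median and highest with SR proteins (3142 tags, limma adjusted p = 0.0326, lower). No fold change is given against 0 tags, and 7 of 28 SR libraries had none there either. The authors' pooled NXF1 file listed 21 tags in Snhg3 outside the snoRNAs and the 5 nt (36.9 CPM), against 91.2 to 239 CPM in the pooled SR files, and 68 such tags in Gas5 (119 CPM), against 169 to 833 CPM. Before the move the same exons passed at adjusted p = 0.0348, a call lost without any NXF1 replicate (at most 0.290) or SRSF6 replicate 2, and under trimmed-mean scaling (0.195).

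Gas5 exons outside snoRNAs had 75.8, 85.5 and 0 CPM with NXF1, against 0, 323 and 1150 CPM with SR proteins. The log2 change was -3.07 ± 0.92 (limma adjusted p = 0.0522), and the NXF1 values sat in the low end of the SR range. Snhg5 exons had 4.21, 0 and 27.6 CPM with NXF1, against 0, 94.3 and 478 CPM (-3.63 ± 1.09, 0.0534). Snhg12 exons had 0, 7.12 and 0 CPM, against 0, 51.0 and 369 CPM (-3.62 ± 1.50, 0.127). Snhg1 exons had 37.9, 42.8 and 18.4 CPM, against 0, 162 and 344 CPM (-1.75 ± 0.81, 0.145). The window of Snhg6 outside its snoRNA had 0 NXF1 tags and that of Snhg8 had 11. The filter kept both, and neither passed the test (log2 changes of -2.85 and -0.21, limma adjusted p = 0.184 and 0.824). The median of all parts, before those bases were moved, was -1.77. The changes of the Snhg8 window and of Snhg5 introns (-0.26) lay above it, and that of Snhg1 exons lay near it.

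Tags were also summed over sequence that was exon in every annotated transcript over it, the 5 nt before a snoRNA included where they fall there. NXF1 had 0 of 1761 tags there in Snhg3, 0 of 1650 in Snhg12 and 0 of 2015 in Gas5. SR proteins had 2093 of 19353 tags in Snhg3 (10.8%), 2743 of 18813 in Snhg12 (14.6%) and 4638 of 35296 in Gas5 (13.1%). Per 100 nt, SR proteins averaged 55.5 CPM on these Gas5 exons, 19.5 on those of Snhg3 and 10.97 on those of Snhg12. On such sequence in Snhg1, NXF1 had 319 of 3784 tags (8.43%, 38.7 CPM per 100 nt) and SR proteins 6518 of 33455 (19.5%, 13.2 CPM per 100 nt). In Snhg5 it held 4 of 21 NXF1 tags and 6013 of 8791 SR tags (68.4%).

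**Figure D4:**
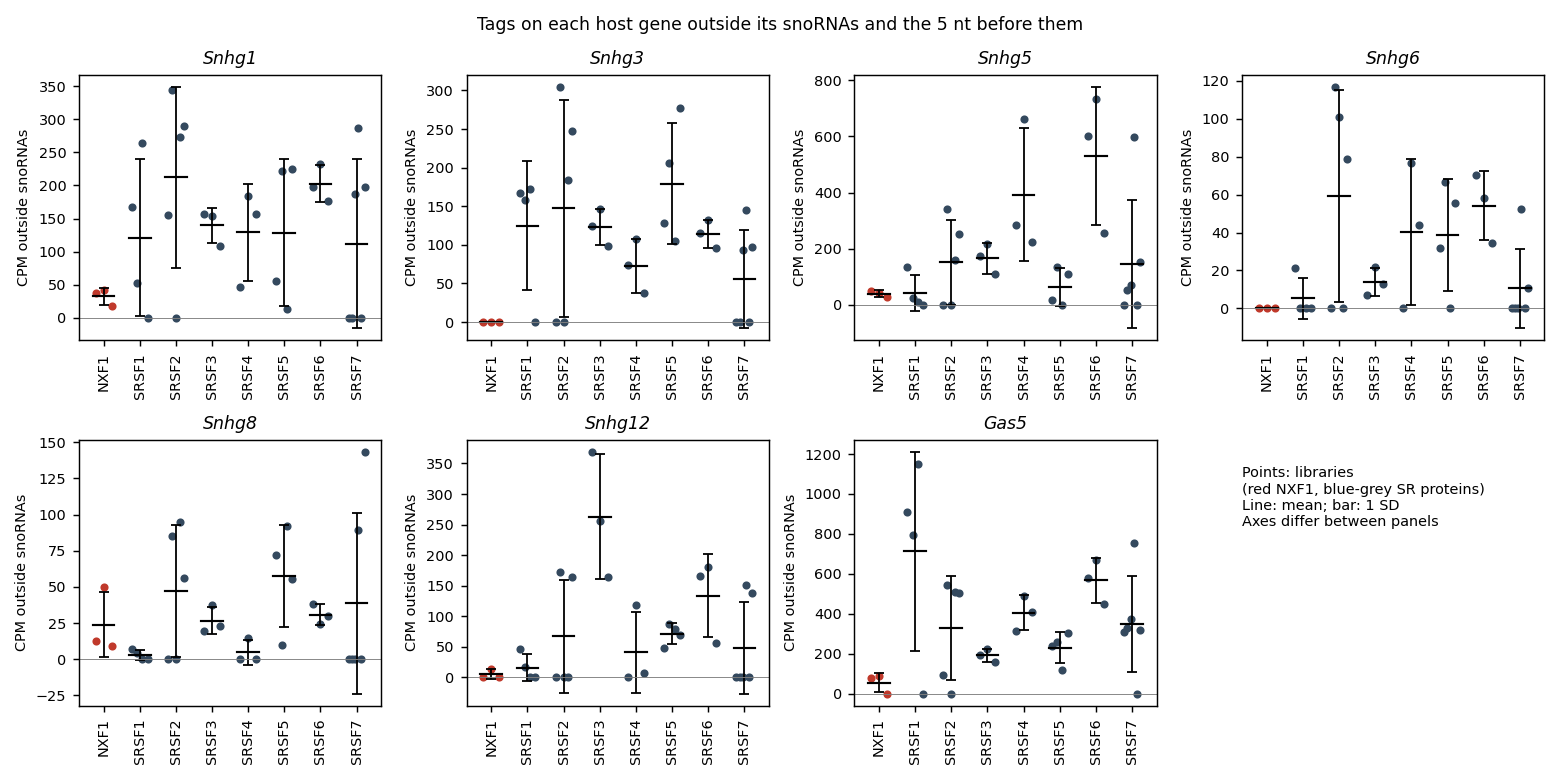
Tags of each host gene outside its snoRNAs and the 5 nt before them, in every library (CPM, y axis, a scale of its own in each panel), NXF1 at the left; lines are means and bars 1 SD. NXF1 has 0 tags in Snhg3 and Snhg6, and SRSF6 and SRSF4 stand highest in Snhg5.

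Mean levels outside the snoRNAs varied among SR proteins. On Gas5 outside its snoRNAs, SRSF1 averaged 713 ± 498 CPM (n = 4), SRSF6 566 ± 112 (n = 3) and SRSF3 192 ± 32 (n = 3). On Snhg12, SRSF3 had 165, 256 and 369 CPM in its libraries and averaged 263 ± 102 CPM, more than any other protein, and SRSF1 averaged 15.8 ± 22.1 CPM. The exon share of Snhg12 tags, here with the 5 nt before snoRNAs counted as exon, was 58.1 ± 8.97% with SRSF3 and 16.6 ± 11.8% with SRSF1. In or within 5 nt before a snoRNA lay 52.5 ± 7.78% of Snhg12 tags with SRSF3 and 99.3 ± 1.09% with SRSF1. No exon part was called in limma for any single SR protein set against the others.

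Snhg12 as a whole was lower with SRSF7, with the smallest adjusted p of a host gene among SR proteins. SRSF7 replicates 1, 2, 3 and 5 were shallow (13038, 54936, 42751 and 16556 listed tags). They held 3, 3, 0 and 0 tags on Snhg12. The deeper replicates 4 and 6 had 351 and 386 CPM, against 425 to 738 CPM with SRSF3 and 529 to 704 CPM with SRSF6. Over the 6 SRSF7 libraries Snhg12 had 0 to 386 CPM, with 170 ± 176 CPM, against 0 to 3301 CPM in the 22 others. The log2 change was -3.38 ± 0.70 (limma adjusted p = 0.00685, where 3.03% of genes passed and 0.529% were lower), and the call held without each library in turn (at most 0.0494). It was lost, with the same direction, in the later run year (-2.60, 0.122) and with small RNA positions left out (-2.46, 0.0653). At matched depth SRSF7 replicate 2 alone was left of its group, with 3 tags on Snhg12 (-4.66), so the call could not be checked there. Snhg5 was lower with SRSF5, which had 16.0, 134, 0 and 110 CPM (-2.03 ± 0.75, 0.0487). Against SRSF5, 21.1% of genes passed and 19.4% were lower, and leaving out any of 17 of the 31 libraries ended the Snhg5 call, as did trimmed-mean scaling (-1.23, 0.466) and coding-gene scaling (-0.61, 0.562). No other host passed for SRSF1 (2.57% of genes passed), SRSF2 (0.433%), SRSF3 (10.7%), SRSF4 (0.417%) or SRSF6 (4.47%). At an unadjusted limma p under 0.05 there were 2 hosts for SRSF1, 0 for SRSF2, 0 for SRSF3, 2 for SRSF4 and 2 for SRSF6.

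Single snoRNAs gave 11 calls among SR proteins, over 7 contrasts. Of 24 hosted snoRNAs tested, 4 were lower with SRSF3 and 3 higher with SRSF1. Of 193 other snoRNA genes, 27 were lower with SRSF3 and 10 higher with SRSF1. Snora16a, an H/ACA snoRNA of Snhg12, had 513, 678, 1070 and 537 CPM with SRSF1, the last from 8 tags. It was higher than the mean of the other 6 (3.56, limma adjusted p = 0.0175, where 3.08% of parts passed and 1.28% were higher). With SRSF5 it had 529, 810.5, 0 and 610 CPM, inside the SRSF1 range apart from the 0. With SRSF3 it had 0, 4.65 and 22.1 CPM and was lower (-4.31, 0.00371, where 15.5% passed and 2.74% were lower). The SRSF1 and SRSF3 values did not overlap. SNORD79 of Gas5 followed the same order, with 119, 199, 104 and 0 CPM for SRSF1 (3.32, 0.0464) and 0, 0 and 4.62 CPM for SRSF3 (-4.59, 0.0146). SRSF3 was also lower on Snora61 of Snhg12 with 0, 41.8 and 45.2 CPM (-3.62, 0.0203) and on SNORD29 of Snhg1 with 0, 53.4 and 64.1 CPM (-3.18, 0.0145). Without SRSF3 replicate 1, which had no tag on either, the adjusted p of these last calls was 0.424 and 0.498. Snora61 was also lost without SRSF3 replicate 2 or 3, Snora16a with SRSF3 without its replicate 2 (0.0579) and with SRSF1 without its replicate 1 or 3 (0.0732 at most), and SNORD79 with SRSF3 without its replicate 2 or 3 (0.246 at most). Low levels were not particular to SRSF3. With SRSF7, Snora16a had 0 to 26.2 CPM, Snora61 0 to 115 CPM and SNORD29 0 to 128 CPM, none of them called.

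Within Gas5, SRSF6 was higher on SNORD24 with 508, 468 and 877 CPM (3.77, limma adjusted p = 0.0339, where 6.05% of parts passed and 5.1% were higher). It was lower on SNORD44 with 0, 28.6 and 0 CPM (-4.85, 0.0166, where 0.952% were lower). Mean SNORD44 levels were 9.52 CPM with SRSF6, 4.71 with SRSF7 and 10.8 with SRSF5, and 13.2 to 91.8 CPM with the others. Another SR protein exceeded these SNORD24 values in a single library, SRSF7 replicate 1 with 1074 CPM, and the rest reached 310.3 CPM at most. SRSF1 was higher on SNORD44 with 75.4, 73.1, 219 and 0 CPM (3.63, 0.0345). SRSF5 was lower on Snord47 with 0, 89.2, 251 and 0 CPM (-3.07, 0.0429, where 19.7% of parts passed and 18.1% were lower). SRSF7 was lower on SNORD28 of Snhg1 with 0 CPM in 4 libraries and 93.5 and 70.7 CPM in the others (-2.79, 0.0419, where 2.78% passed and 0.483% were lower). All of these ranges overlapped those of the other SR proteins.

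The calls for SNORD79 with SRSF1, Snord47 with SRSF5 and SNORD28 with SRSF7 were lost without any of 19, 11 and 15 libraries. SNORD44 with SRSF1 was lost without any SRSF1 replicate or SRSF6 replicate 1 or 3 (at most 0.162), and SNORD24 with SRSF6 without any SRSF6 replicate or SRSF4 replicate 1 (at most 0.179). SNORD44 with SRSF6 was lost without any SRSF6 replicate (at most 0.253). SRSF2 (0.639% of parts passed) and SRSF4 (0.412%) had no call on a hosted snoRNA or host part, with 0 and 8 parts at an unadjusted limma p under 0.05.

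Snhg5 stood apart from the other hosts in that its tags lay on the exons and introns and not on its snoRNAs. Both SNORD50 copies together took 44 of 8791 SR tags (0.501%) and 0 of 21 NXF1 tags, and their sequences each match a further place in the genome, so tags there are uncertain. SRSF6 had 602, 734 and 256 CPM on the gene, and SRSF4 had 287, 672 and 226 CPM. These were the highest means (531 ± 247 and 395 ± 242 CPM, n = 3 each), against 40.3 ± 11.7 CPM with NXF1 (n = 3) and no tag in the control file. Neither passed the test (SRSF6 2.34 ± 0.83, limma adjusted p = 0.0853; SRSF4 1.86 ± 0.87, 0.490).

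The most tagged base of Snhg5 is shown in capitals in its exon window, chr9:88417185-88417213 (minus strand), because in the other hosts the leading base lies in a snoRNA or just before one.
Snhg5 exon: gggagcccaaagcaTctgagagaattgat
That base had 0 CPM with NXF1 and 5.74 ± 7.69 CPM with SR proteins (tags in 18 of 28 libraries), with SRSF6 the highest at 15.3 CPM. Of the 8747 SR tags of Snhg5 outside its snoRNAs, 74.1% lay more than 20 nt before a snoRNA and 25.2% more than 20 nt after the nearest, and none lay within 5 nt before one.

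Snhg1 lies 30661 nt before Nxf1 on the plus strand, and the NXF1 line carries further copies of Nxf1 on its BAC, whose ends are not given in these sources. Extra gene copies and NXF1 binding therefore cannot be told apart for Snhg1. Nxf1 itself had 2366, 2985 and 1472 CPM with NXF1, against 0, 74.1 and 162 CPM as the lowest, median and highest with SR proteins (5.08 ± 0.80, limma adjusted p = 0.000166). Hnrnpul2, 92959 nt after Snhg1, had 771, 656 and 396 CPM, against 0, 19.4 and 244 CPM (3.79 ± 0.85, 0.00542). Polr2g, 66687 nt after it, had 96.9, 28.5 and 82.8 CPM, against 0, 3.10 and 46.8 CPM (2.86 ± 0.61, 0.00372). The groups overlapped for Polr2g alone, and these 3 neighbours were higher with NXF1.

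The other neighbours tested, among them Wdr74 and Stx5a between Snhg1 and Nxf1, did not pass. Only genes with enough tags for the filter were tested, so further annotated genes may lie there. Wdr74, 9397 nt after Snhg1, had 50.5, 0 and 0 CPM with NXF1, against 0, 0 and 66.3 CPM with SR proteins (0.11 ± 1.14, limma adjusted p = 0.941). Stx5a, 14982 nt after it, had 16.8, 28.5 and 46.0 CPM, against 0, 19.8 and 105 CPM (0.39 ± 0.71, 0.654). Slc3a2, 127 nt before Snhg1 on the other strand, had 58.95, 0 and 110 CPM, against 0, 58.4 and 320 CPM (-1.42 ± 0.88, 0.197). Ttc9c, 82633 nt after it, had a log2 change of 1.26 ± 0.78 (0.197). NXF1 tags at Snhg1 were 99.6 ± 0.125% in or just before a snoRNA, against 88.8 ± 8.64% with SR proteins.

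**Figure D5:**
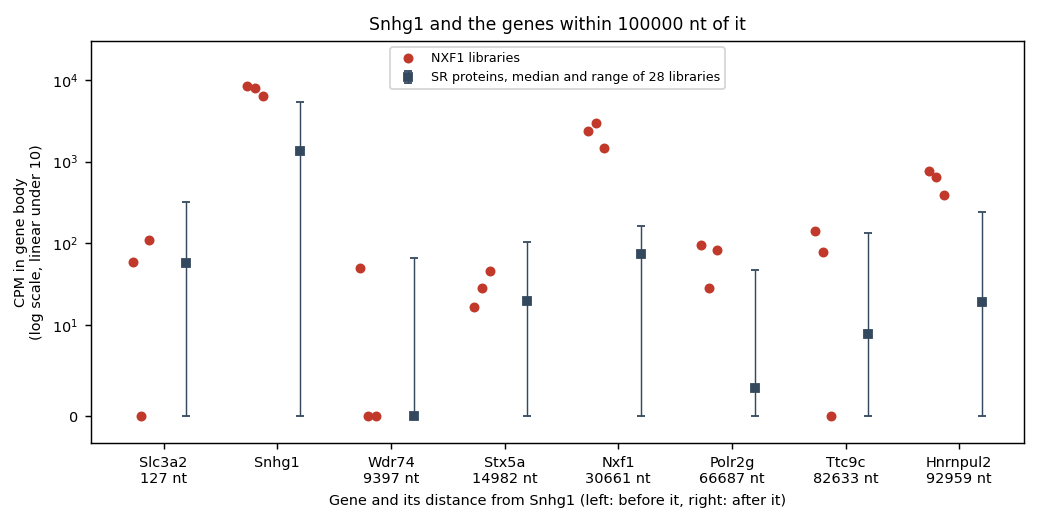
Level (CPM, y axis, log scale, linear under 10) of Snhg1 and the genes within 100000 nt of it that passed the filter, in order along the chromosome with their distance from Snhg1. The 3 NXF1 libraries (red) lie above the SR range (blue-grey, median and range of 28) for Snhg1, Nxf1 and Hnrnpul2, and inside it for Slc3a2, Wdr74 and Stx5a.

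Other snoRNA hosts and genes of the snoRNA machinery were read from fixed lists. Among 14 other noncoding snoRNA hosts listed, 4 were annotated and tested, with 0 called by limma, 2 at an unadjusted p under 0.05 and a median log2 change of 1.05. Snhg4 had 944 and Snhg9 145 CPM with NXF1, against 315 and 53.4 CPM with SR proteins. Snhg7 (198 against 205 CPM) and Snhg11 (19.7 against 18.7 CPM) were about level between NXF1 and SR proteins. Nop56 and Nop58, core proteins of box C/D particles whose genes also carry snoRNAs, had 1873 and 2096 CPM with NXF1, against 867 and 576 CPM (adjusted p = 0.205 and 0.0998, with 1 of 2 at an unadjusted p under 0.05).

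The 6 genes of the H/ACA core and its assembly had a median of -1.81 and 0 calls (1 at an unadjusted p under 0.05), and 3 tested assembly factors of 7 a median of -3.17 and 0 calls (2 at an unadjusted p under 0.05). The other median of all genes, -1.83, stands beside both.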

How the data were processed

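iCLIP was measured in P19 cells with NXF1, 7 SR proteins and GFP-NLS. Per the file headers, the deposited values are cDNA counts per nucleotide signed by strand (unit: other), and the authors kept only positions under a false discovery rate of 0.05 (100 permutations, 15-nt neighbourhood, mm9, Ensembl 59 segments). The submitters' processing notes name CASAVA 1.4; which aligner was run is not given in these sources. That threshold was applied to each library alone, so a file's total is not a sequencing depth and a weak position may go unlisted. The authors' pooled files were read for GFP-NLS, whose 4 samples enter no test, and elsewhere as a description only.

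Same-strand tags were summed per gene body and per gene part with Python 3.11.15 and pandas 2.3.3, a small RNA gene taking its tags from the exon or intron around it. limma voom (limma 3.58.1, R 4.3.3) was fitted over 31 libraries with listed tags as library size, for genes or parts with 42.1 CPM in 3 libraries and 15 tags, with Benjamini-Hochberg adjustment and calls under 0.05. The fixed plan assumed this test. The fit was tested on simulated data. Groups and replicate numbers came from titles. Nothing says that each replicate was its own culture, so the p-values reflect no more than the spread among the libraries at hand. Alternatives were other scalings, filters, limma-trend with 1 or 10 CPM added, a replicate block, depth and run-year subsets and leaving out libraries. Named were all 7 hosts, per host the 3 snoRNAs with most tags and any called, the 3 top positions, Snhg1's neighbours within 100000 nt, the 2 genes most like each host, and listed genes as counts. Members and lists were chosen with earlier results of these data known. The list of nonsense-mediated decay genes is not reported here. Sequences and annotation are from mm9 and GENCODE vM1, and names and lengths of Snhg6 and Snhg8 from RefSeq (GRCm38.p6).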

Additional observations from a re-analysis of the deposited data

Results flagged for a closer look

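Among 28 groups of 4 to 6 libraries checked for a library far from the rest of its group, 3 had one, where chance alone gives about 1 in 20. Snhg5 had 602.1 CPM in SRSF7 replicate 4, the deepest library, and 154.1 CPM in the next SRSF7 library. Snhg8 had 460.2 CPM in SRSF7 replicate 1, the shallowest library, where that value is 6 tags, and 151.4 CPM in the next. Snhg12 had 0.0 CPM in SRSF2 replicate 3, which had no tag on 6 of the 7 hosts, and 963.8 CPM in the next SRSF2 library.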

How the results depend on the processing

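With coding-gene scaling, 475 of all genes tested were higher with NXF1, against 225 in the main fit. The values here are counts of calls on the hosts, without the share of all genes or parts called in each setting. For NXF1 on the 7 gene bodies (1 call) they were 4 with coding-gene scaling, 0 with no filter, 0 with limma-trend on log2(CPM + 1) and 0 on log2(CPM + 10), 6 at matched depth, 5 in the later run year, 2 without the libraries labelled SRSF2 replicates 2 and 5, 0 with small RNA positions left out, and 4 in libraries of at least 20000 tags (chosen after seeing the data, as was the 5-nt margin). Leaving out each library gave 0 to 3. For each SR protein on gene bodies (2 calls) they were 1 with trimmed-mean scaling, 1 with no filter, 1 and 1 with limma-trend, 4 at matched depth (all 4 higher, while both calls of the full set were lower), 0 in the later run year, 1 with small RNA positions left out, and 1 to 2 without single libraries. For NXF1 on gene parts (7 calls) they were 22 with coding-gene scaling, 1 with no filter, 0 and 3 with limma-trend, 20 at matched depth, 15 in the later run year, 14 in libraries of at least 20000 tags, and 0 to 12 without single libraries (12 without SRSF1 replicate 4 or SRSF2 replicate 3, 0 without NXF1 replicate 1 or 2). For each SR protein on gene parts (11 calls) they were 7 with trimmed-mean scaling, 19 with coding-gene scaling, 3 with no filter, 2 and 3 with limma-trend, 7 in the later run year, and 6 to 13 without single libraries (6 without SRSF6 replicate 1 or 3). A replicate block gave 3, 3, 9 and 7 calls in these comparisons; replicate numbers do not pair the samples (mean correlation 0.00917 over 91 same-numbered pairs, 14 over 0.1). With small RNA positions left out, the NXF1 change reversed for Snhg3 (-0.40) and Snhg6 (-2.82), neither past the test. The snoRNA share was 84.6 to 87.8% with NXF1 and 64.9 to 68.6% with SR proteins without single libraries, and the exon share with NXF1 was 4.75% in place of 11.2% with exons of the longest transcript only. The causes were not tested, apart from the small RNA setting, which removes the snoRNA tags. The filter on listed positions and uneven totals limit every comparison of weakly tagged exons.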

Other observations

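Within the short snoRNAs, few tags were listed towards the 3′ end, for NXF1 and SR proteins alike. The cause was not tested. Of 16 snoRNAs under 100 nt with NXF1 tags and at least 100 tags in all, 15 had under 1% of their NXF1 tags in the 3′-terminal stretch when cut in 3 equal parts. Of 17 with SR tags, 14 did. SNORD28 of Snhg1 was the exception with NXF1 (17.0%), and SNORD44 of Gas5 was highest with SR proteins (34.1%). Of 7 snoRNAs of 100 nt or more, 1 had under 1% of its tags there with NXF1, and 1 with SR proteins. Snora16a had 86.3% of NXF1 tags and 53.6% of SR tags in that 3′ part, and Snora73a 59.8% and 69.2%. Snora61 had none in either. The most tagged base was the same for NXF1 and SR proteins in 10 of 23 snoRNAs with tags of both and at least 100 in all, and within 5 nt in 14. Of the listed positions with an NXF1 tag, between 96.7% (Snhg12) and 100% (Snhg5, Snhg6 and Snhg8) also had SR tags.

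Across the 31 libraries, the 2 genes with levels most like each host's were as follows (Spearman correlation of CPM, a description that shares library and depth). Snhg1 was most like SNORD75 (0.941), the snoRNA gene of Gas5, and 5430416N02Rik (0.927). Snhg12 was most like 2700023E23Rik (0.943) and Eif4a1 (0.912), the RNA helicase of translation initiation. Gas5 was most like Nop56 (0.878) and 2410006H16Rik (0.866), Snhg3 like the ribosomal protein genes Rpl27a (0.817) and Rps12 (0.788), Snhg8 like SNORA73 (0.867) and Rpl27a (0.819), and Snhg6 like Snord4a (0.881) and Rpl30 (0.867). Snhg5 was most like Mum1 (0.914) and Nmd3 (0.896), a ribosome export adaptor, and its median correlation with all genes tested was 0.511, where that of Gas5 was 0.0984. Tags on the opposite strand were 8 in the Snhg6 window, 3 in Gas5 and 0 in the other hosts.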
